A study of Mus musculus with 6 samples.

Results

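The genes of the oxidative phosphorylation complexes were examined in the 4T1 line of metastatic mouse mammary carcinoma, with NFAT1 shRNA and with control shRNA. NFAT1 is a calcium-responsive transcription factor encoded by Nfatc2. A gene belonged to the group if its symbol began with Nduf and then a, b, c, s or v and a digit, with Cox and a digit, with Uqcr or with Atp5, or was Sdha, Sdhb, Sdhc or Sdhd. Only probe sets with 1 gene symbol were used, and each gene was represented by its brightest probe set (highest mean of the 6 arrays). This gave 89 of the 18193 genes measured. By complex they were 33 genes of complex I, 4 of complex II, 8 of complex III, 19 of complex IV and 17 of complex V, with 8 genes that help to assemble complex IV. Ndufa4 and its relative Ndufa4l2 were counted with complex IV, where the Ndufa4 protein is known to sit despite its name.

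In the first group, 3 samples had been transduced with a vector expressing an NFAT1 shRNA, and in the second, 3 samples with a control shRNA vector. All were adherent cultures harvested when selection had run for 10 days. Each gave 200 ng of RNA for labelling and an Affymetrix mouse array. The labels name no clone and no second shRNA, and they do not say whether the samples of a group came from separate cultures. The p-values therefore rest on the spread within these sets of samples, and that spread may be technical. Values are log2 RMA signals, a normalized brightness per probe set, and differences are NFAT1 shRNA minus control. A difference of 1 is 2-fold. Tests are limma over all genes, and a gene is called changed at a Benjamini-Hochberg adjusted p under 0.05. All p-values are 2-sided.

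The respiratory chain passes electrons from NADH (at complex I) and from succinate (at complex II) to ubiquinone, then through complex III and cytochrome c to oxygen at complex IV. Complexes I, III and IV pump protons out of the mitochondrial matrix, and complex V, the ATP synthase, uses the gradient to make ATP. Most subunits are encoded in the nucleus, as all 89 genes are, and must match subunits made from mitochondrial DNA. 4T1 cells are known to use both glycolysis and respiration.

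The shRNA target Nfatc2 has 6 probe sets here, of which 4 were lower and 2 higher in NFAT1 shRNA cells. On one of the lower probe sets the signal was 5.15, 5.43 and 5.29 on the NFAT1 shRNA arrays, against 6.05, 6.18 and 5.91 on the control arrays, and the groups did not overlap (difference -0.76 ± 0.11 SE, adjusted p = 0.0629 over 34945 probe sets). Its brightest probe set was higher by 0.35, so arrays are named by their labels only. NFAT1 shRNA 1 correlated more closely with the 3 controls (0.991 to 0.994 over all genes) than with NFAT1 shRNA 2 and 3 (0.985 and 0.984). Control 3 lay between the other controls for 54.1% of all genes and 60.7% of the oxidative phosphorylation genes. The 6 epithelial markers were bright on every array (signals from 9.29 to 13.23). Their summed linear signal was 28760 to 32440 in NFAT1 shRNA cells and 28370 to 28780 in controls. Of the leukocyte markers 3 of 5 measured lay below the array medians on all arrays, Ptprc among them, as did 4 of 5 fibroblast, 3 of 4 endothelial and 5 of 6 muscle markers. The exceptions were Cd68, Cd3e, Pdgfra, Kdr and Mb. Summed linear signals in NFAT1 shRNA and control cells were 155.3 to 314.4 and 142.9 to 185.3 for leukocyte, 190.9 to 427 and 153 to 317.9 for fibroblast, 96.1 to 116 and 90.6 to 95.1 for endothelial, and 173.9 to 181 and 163.7 to 181.2 for muscle markers. Their part in the results was not tested.

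In the fit over all 6 arrays, most oxidative phosphorylation transcripts differed little between NFAT1 shRNA and control cells. None of the 89 genes passed the limma test over all genes, where 0.511% of all genes passed (0.181% higher and 0.33% lower in NFAT1 shRNA cells). With so low a share, 0 of 89 lies near the background. When NFAT1 shRNA 1 was left out, 14 of the 89 passed (15.7%, against 18.4% of all genes). Over all 6 arrays, 44 of the 89 genes had a higher mean in NFAT1 shRNA cells (49.4%) and 45 a lower one (50.6%), against 59.3% and 40.7% of all genes. The median difference was -0.01, against 0.04 for all genes. An unadjusted p under 0.05 was found for 12 of them (13.5%), against 17.1% of all genes. Of these, 5 were higher, where 10.1% of all genes were, and 7 were lower, where 7.01% of all genes were. The 3 arrays of one group lay wholly on one side of the other group for 19 of the 89 genes (21.3%), a share near the 22.8% of all genes. By this measure 8 genes were higher in NFAT1 shRNA cells and 11 lower, against 14.2% and 8.61% of all genes. In whole-culture RNA, fewer cells of a kind and less RNA per cell cannot be told apart.

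The differences were also small in size. They lay within 0.1 of 0 for 48 of the 89 genes (53.9%), against 37.6% of all genes, and reached at least 0.5 in either direction for 2 genes (2.25%), against 10.2% of all genes. These 2 were Atp5d of complex V and Cox7c of complex IV. The 95% interval of the difference lay within 0.5 of 0 for 69 genes and within 1 for 88 genes, the exception being Cox7a2l, whose interval ran from -0.192 to 1.045. Most of the genes were bright. Their median signal was 11.04, against 6.39 for all genes, and the median SE of a difference was 0.088, against 0.115 for all genes. The part of brightness in the small differences was not tested. The median range over the 3 arrays of a group was 0.206 among the NFAT1 shRNA arrays and 0.097 among the controls for the 89 genes, against 0.305 and 0.195 for all genes.

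**Figure D1:**
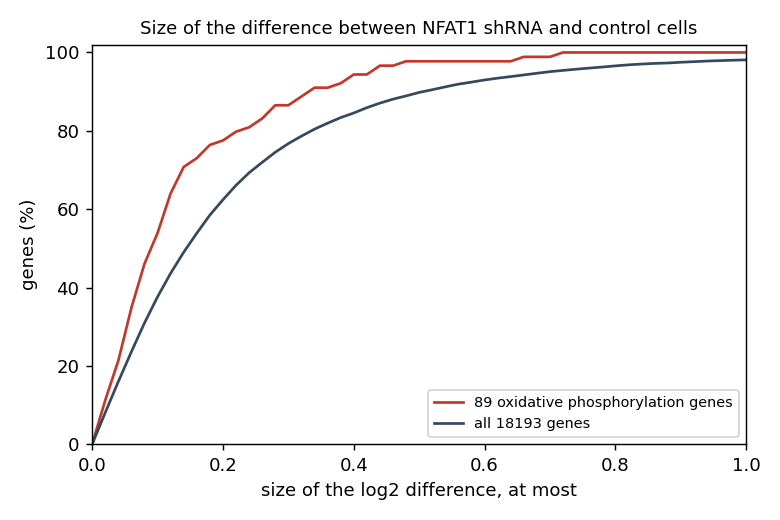
Cumulative percentage of genes (y axis) whose log2 difference between NFAT1 shRNA and control cells is at most the size on the x axis, for the 89 oxidative phosphorylation genes (red) and all 18193 genes (dark). The red line lies above the dark line, with 53.9% against 37.6% of genes within 0.1.

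The complexes lay close together. The median difference was -0.01 for complex I, 0.06 for complex II, 0.01 for complex III, 0.04 for complex IV, 0.01 for its assembly factors and -0.03 for complex V. The SD between arrays of these medians, pooled over both groups, ran from 0.0266 for complex III to 0.0956 for the assembly factors. On single arrays the median of complex V was 0.04, -0.08 and -0.07 on NFAT1 shRNA 1, 2 and 3 against the control mean, and -0.01, 0.00 and 0.01 on controls 1, 2 and 3. That of complex I was 0.04, -0.07 and -0.02 on the NFAT1 shRNA arrays and -0.01, 0.01 and 0.01 on the controls. In both complexes NFAT1 shRNA 1 lay just above every control and the other NFAT1 shRNA arrays below every control.

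**Figure D2:**
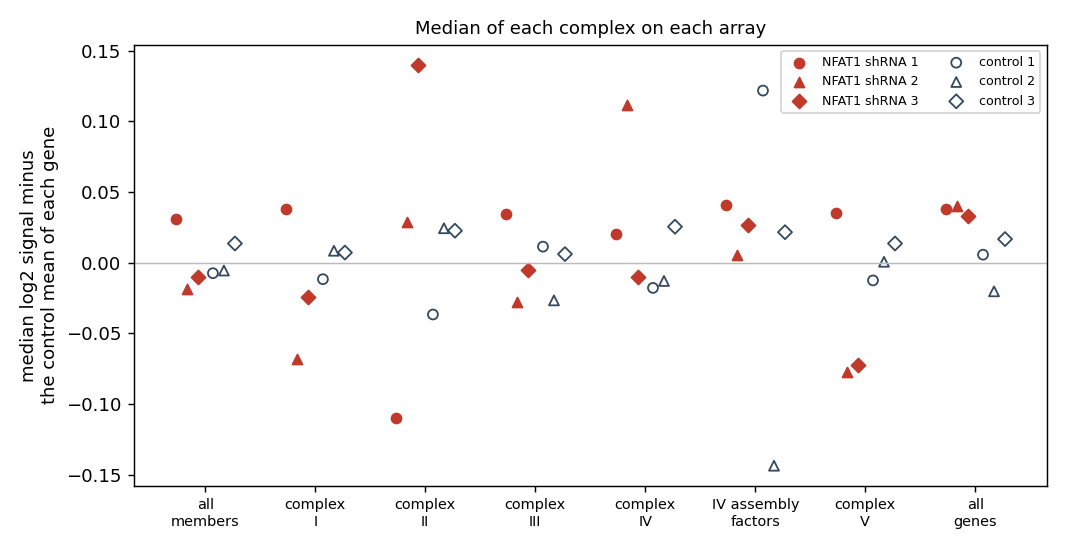
Median over the genes of each complex of the log2 signal minus that gene's control mean (y axis), for the 3 NFAT1 shRNA arrays (filled red) and the 3 control arrays (open), with all 89 members and all genes for comparison. The lowest median is that of the complex IV assembly factors on control 2 (-0.14), the highest that of complex II on NFAT1 shRNA 3 (0.14), and NFAT1 shRNA 1 is higher than NFAT1 shRNA 2 and 3 in complexes I, III and V.

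**Figure D3:**
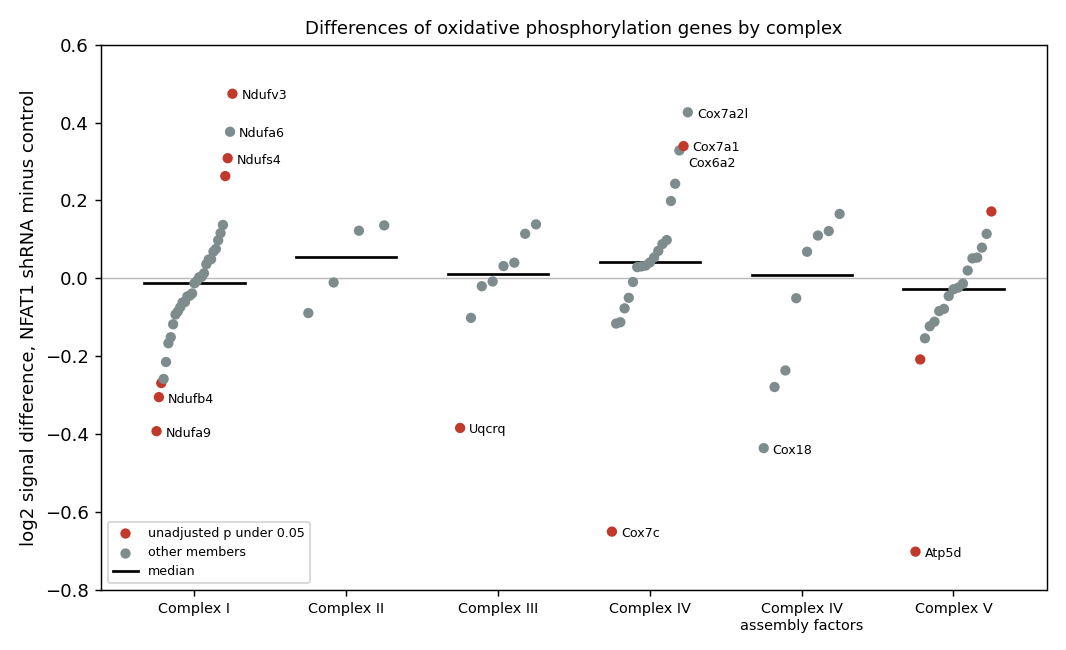
Difference in log2 signal, NFAT1 shRNA minus control (y axis), of each of the 89 genes, by complex (x axis). Red points have an unadjusted p under 0.05, black lines are medians, and genes at least 0.3 from 0 are named. Points gather near 0 in complexes I to V, less so among the complex IV assembly factors (2 of 8 within 0.1). Atp5d at -0.70 and Cox7c at -0.65 lie lowest.

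Complex V held the gene nearest to the threshold. Atp5d encodes the delta subunit of the rotating stalk in the F1 head of ATP synthase. Its signal was 11.61, 11.35 and 11.66 on the NFAT1 shRNA arrays, against 12.16, 12.24 and 12.31 on the control arrays. All NFAT1 shRNA arrays lay below all controls. The means were 11.54 ± 0.17 in NFAT1 shRNA cells and 12.24 ± 0.07 in control cells (SD, n = 3 each). The difference was -0.70 ± 0.11 (SE), or 61.5% of control, with a limma adjusted p of 0.0599. This was place 132 by p among all genes. Its second probe set differed by -0.84 with the groups again apart. Both probe sets are of a kind prone to cross-hybridisation, so the setting without such sets had no Atp5d value. Over the 14 other alternative settings the Atp5d difference ran from -0.81 to -0.61 and its limma adjusted p from 0.00703 to 0.361. It passed in 4 of them, with array medians subtracted, array weights, the replicate block, and NFAT1 shRNA 1 left out. In these settings 0.83%, 18.6%, 4.35% and 18.4% of all genes passed.

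The other genes of the F1 head had smaller differences. Atp5a1 and Atp5b, the alpha and beta subunits that form the catalytic ring, differed by -0.08 and 0.05. Atp5c1, the gamma subunit of the central shaft, differed by 0.11, with all 3 NFAT1 shRNA arrays (12.46, 12.52 and 12.64) above the controls (12.41, 12.43 and 12.44). Its other probe set went the other way, by -0.22, and neither passed. Atp5e, the epsilon subunit, differed by 0.05 (named after its value was seen, as the remaining F1 subunit). Thus of 5 F1 genes 1 reached an unadjusted p under 0.05, Atp5d (20%, against 17.1% of all genes).

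The membrane part and side stalk of ATP synthase had 12 genes, of which 9 had a lower mean, with a median of -0.04. Atp5pb, the b subunit of the side stalk, read 12.31, 12.12 and 12.25 in NFAT1 shRNA cells, against 12.48, 12.43 and 12.40 in control cells, a gap between groups of under 0.1 (difference -0.21, unadjusted p = 0.0452, adjusted p = 0.285 by limma). Atp5h, the d subunit of the same stalk, read 12.03, 11.99 and 12.00, against 11.81, 11.85 and 11.85. It was thus higher on every NFAT1 shRNA array (difference 0.17, limma adjusted p = 0.287). The second probe set of Atp5h, nearly as bright, differed by 0.05 with overlapping groups. That of Atp5pb differed by -0.16, also with overlap. Atp5j2, the f subunit of the membrane part, read 12.01, 11.99 and 11.98, against 12.12, 12.18 and 12.14 (difference -0.15, limma adjusted p = 0.322). The genes Atp5g1, Atp5g2 and Atp5g3 each encode the c subunit of the rotor ring, with the same mature protein behind different import sequences. They differed by -0.12, 0.08 and -0.08. Of the 3, Atp5g1 had the widest spread among the NFAT1 shRNA arrays, with 10.92, 10.14 and 10.26, against 10.72, 10.37 and 10.61 in controls, and its groups overlapped.

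Complex IV, cytochrome c oxidase, held the other large difference. Cox7c encodes a small nuclear subunit of the enzyme. It read 7.01, 6.60 and 6.68 on the NFAT1 shRNA arrays, against 7.54, 7.37 and 7.33 on the control arrays. The groups did not overlap, and the difference was -0.65 ± 0.13 (SE), or 63.7% of control (limma adjusted p = 0.112). Its dimmer probe set differed by -0.86, also without overlap, at 5.42, 4.62 and 5.12 against 5.92, 5.82 and 5.999. The Cox7c difference kept its sign in 15 alternative settings, from -0.86 to -0.57, and passed in 4. These were array weights, the replicate block, and leaving out NFAT1 shRNA 1 alone or with control 3. In them 18.6%, 4.35%, 18.4% and 2.24% of all genes passed. Cox4i1, Cox5a and Cox5b, widely expressed nuclear subunits, differed by 0.03, -0.08 and 0.10, each with overlapping groups. Their control means were 12.7, 12.7 and 12.9, against 7.4 for the brighter Cox7c probe set. Whether the Cox7c probe sets read its main transcript was not tested.

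Complex IV has subunits with tissue forms, which are encoded by different genes. Among the forms found in most tissues, Cox6a1 differed by 0.09, Cox6b1 by -0.11, Cox7a2 by -0.05 and Cox8a by 0.04. The heart and skeletal muscle form Cox6a2 read 6.71, 6.67 and 7.10 in NFAT1 shRNA cells, against 6.49, 6.36 and 6.64 in control cells, just without overlap (difference 0.33, limma adjusted p = 0.301). Cox7a1, also a muscle form, read 3.43, 3.69 and 3.85, against 3.26, 3.49 and 3.20, below the array medians of 5.42 to 5.48 throughout. The groups overlapped, with NFAT1 shRNA 1 below control 2 (difference 0.34, limma adjusted p = 0.282). Cox8b, a further muscle form, differed by -0.01 and also lay below the array medians. The testis forms Cox6b2 and Cox8c differed by -0.12 and 0.20. Signals below the array medians are compressed by RMA, so differences there can be understated. Tnnt3, among the 6 muscle markers, was higher by 0.59 without passing (limma adjusted p = 0.134), and the other 5 differed by -0.14 to 0.22.

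Members tied to oxygen supply and to supercomplexes were not called either. Cox4i2 and Ndufa4l2, which low oxygen is known to induce, differed by 0.07 and 0.24. Ndufa4l2 read 5.76, 5.93 and 5.62, against 5.63, 5.41 and 5.53, and its groups overlapped narrowly. Ndufa4 itself differed by 0.05. Cox7a2l, whose protein links complexes III and IV into supercomplexes, read 10.10, 10.67 and 11.17 in NFAT1 shRNA cells, against 10.08, 10.33 and 10.25 in control cells. NFAT1 shRNA 1 was at the level of the controls, while NFAT1 shRNA 2 and 3 were above all of them. The difference was 0.43 ± 0.26 (SE, limma adjusted p = 0.416), and all 3 Cox7a2l probe sets were higher, by 0.43 to 0.54.

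The 8 assembly factors of complex IV split evenly, 4 higher and 4 lower. None reached an unadjusted p under 0.05, where 17.1% of all genes did. Cox18, which inserts a core subunit into the inner membrane, read 9.77, 8.92 and 9.25, against 9.88, 9.56 and 9.80. Here again NFAT1 shRNA 1 lay among the controls and the other NFAT1 shRNA arrays below them (difference -0.44, limma adjusted p = 0.348). Cox11, a copper-delivery factor, read 8.83, 8.17 and 8.08, against 8.70, 8.54 and 8.67. NFAT1 shRNA 1 was above all controls here and the other NFAT1 shRNA arrays below all of them (difference -0.28). Cox10, which makes the haem precursor of the enzyme, differed by -0.24. Cox16, Cox20 and Cox19 differed by 0.17, 0.12 and 0.11. The 3 probe sets of Cox16 did not run one way.

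Complex I, NADH dehydrogenase, had 6 core subunits among its 33 genes. The core is the part shared with bacteria, and most of these 6 carry the flavin or iron-sulfur clusters along which electrons run. Ndufv1, Ndufv2, Ndufs1, Ndufs3 and Ndufs7 all differed by less than 0.1, at 0.00, -0.01, -0.06, 0.07 and 0.00. Ndufs8, which holds iron-sulfur clusters, was the exception among them. It read 11.78, 11.45 and 11.49 on the NFAT1 shRNA arrays, against 11.78, 11.83 and 11.92 on the control arrays. NFAT1 shRNA 1 lay just under the lowest control, and the other NFAT1 shRNA arrays were clearly lower (difference -0.27 ± 0.11 SE, unadjusted p = 0.0471, limma adjusted p = 0.287). Of its 6 probe sets 5 were lower, with differences of -0.18 to -0.38, and the dimmest differed by 0.02.

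The accessory subunits of complex I stabilise the core and help its assembly. Of 27 genes, 15 had a lower mean and 12 a higher one. Ndufa9, which sits near the quinone site, read 10.32, 10.04 and 10.19, against 10.60, 10.52 and 10.60 in control cells. It was lower on every NFAT1 shRNA array, with a difference of -0.39 ± 0.10 (SE), or 76.2% of control (limma adjusted p = 0.156). Ndufb4 differed by -0.31 on a dim probe set (4.34, 3.97 and 4.21, against 4.43, 4.48 and 4.54). Brighter probe sets that this gene shares with 2 related genes differed by -0.05 and -0.10.

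Other accessory subunits were higher. Ndufv3, an accessory subunit of the NADH-oxidising module, read 10.32, 10.81 and 10.71, against 9.99, 10.23 and 10.19 in control cells. The groups did not overlap, and the difference was 0.47 ± 0.15 (SE, limma adjusted p = 0.215). Ndufs4, whose loss in mice causes a fatal brain disease of complex I deficiency, read 9.63, 9.74 and 9.92, against 9.44, 9.48 and 9.46. The groups were apart (difference 0.31, limma adjusted p = 0.216), but its 4 probe sets disagreed. The brighter pair was higher by 0.31 and 0.29 and the dimmer pair differed by -0.19 and -0.23. Ndufa6 read 10.24, 10.78 and 10.93, against 10.13, 10.40 and 10.29, so NFAT1 shRNA 1 lay within the controls (difference 0.38, limma adjusted p = 0.348). Ndufa7, named after its values were seen, differed by 0.26, and its 5 probe sets ran the same way, from 0.10 to 0.27.

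**Figure D4:**
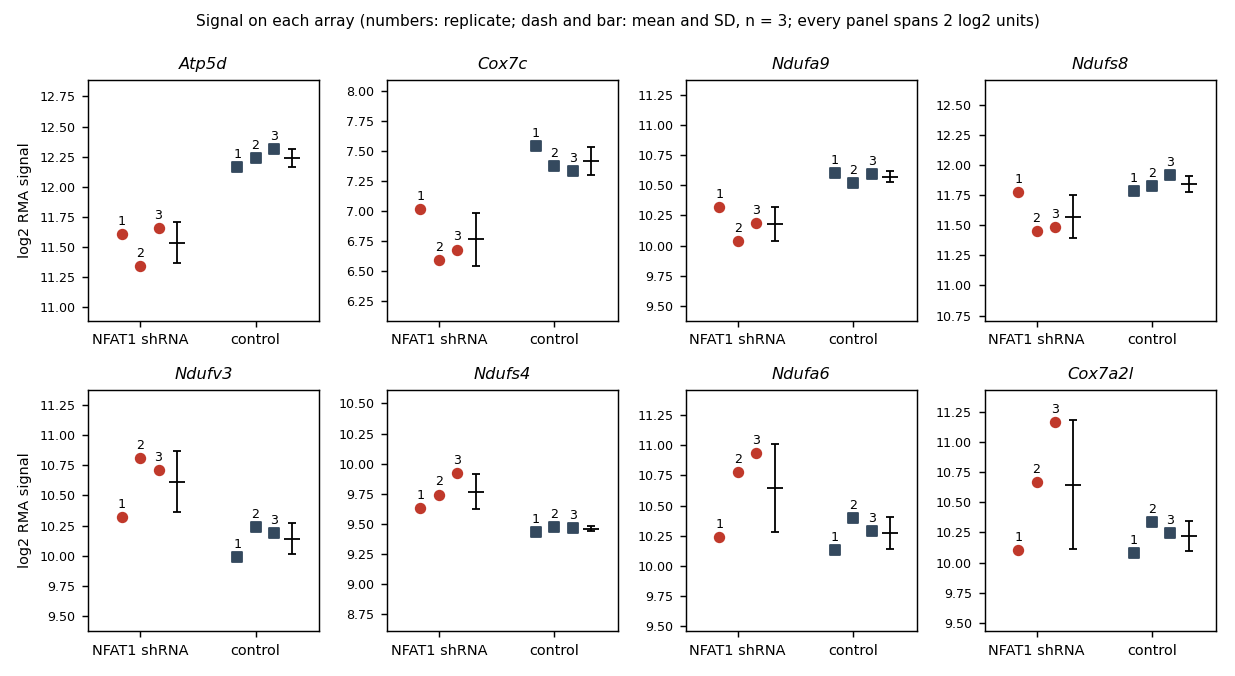
Log2 RMA signal (y axis, 2 log2 units in each panel) of 8 genes on the 3 NFAT1 shRNA arrays (red circles) and the 3 control arrays (dark squares), with replicate numbers and, beside each group, its mean and SD (n = 3). Atp5d, Cox7c and Ndufa9 are lower on every NFAT1 shRNA array, and NFAT1 shRNA 1 lies at control level for Ndufa6 and Cox7a2l.

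Of the 4 genes of complex II, 0 reached an unadjusted p under 0.05, and 1 of the 8 of complex III did (12.5%). The share of all genes was 17.1%. In complex II, succinate dehydrogenase, Sdha, the flavoprotein that oxidises succinate, differed by 0.12 and Sdhb, its iron-sulfur partner, by -0.09. Sdhb read 11.21, 11.24 and 11.26, against 11.32, 11.29 and 11.36, a small gap without overlap (limma adjusted p = 0.527). The membrane anchors Sdhc and Sdhd differed by 0.14 and -0.01. In complex III, the core proteins Uqcrc1 and Uqcrc2 differed by -0.02 and 0.11, and Uqcrfs1, the Rieske iron-sulfur protein, by 0.04. Cyc1, the cytochrome c1 of this complex, lay outside the symbol rule and was counted with the electron carriers. It differed by -0.33 with overlapping groups (limma adjusted p = 0.382) and was named after its value was seen. Uqcrq, a small subunit, read 11.20, 10.64 and 10.69, against 11.24, 11.21 and 11.23. NFAT1 shRNA 1 lay just below the controls and the other NFAT1 shRNA arrays well below (difference -0.38, limma adjusted p = 0.286). Of its 4 probe sets 2 were lower and 2 higher. Uqcrh, the hinge protein, differed by 0.14 and Uqcr11 by -0.10.

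Because NFAT1 shRNA 1 lay near the controls in many of these genes, the fit without it was read beside the full one. The array was picked by its values in these same genes, so the p-values of this fit are descriptive only. With NFAT1 shRNA 1 left out, 14 of the 89 genes passed (15.7%), a share near the 18.4% of all genes. Of the 89 genes 9 were lower (10.1%), against 7.84% of all genes, and 5 were higher (5.62%), against 10.6% of all genes. In this fit Cox7c differed by -0.78 (limma adjusted p = 0.00726), Uqcrq by -0.56 (adjusted p = 0.00902), Atp5d by -0.74 (adjusted p = 0.0116), Cox18 by -0.66 and Cox11 by -0.51. Ndufa9, Ndufb4 and Ndufs8 differed by -0.46, -0.39 and -0.37. Upward, Cox7a2l differed by 0.70, Ndufv3 by 0.62, Ndufa6 by 0.58, Cox7a1 by 0.45 and Ndufs4 by 0.38. Leaving out other arrays made some of these differences smaller. Without NFAT1 shRNA 3, Cox7a2l differed by 0.1650, Ndufa6 by 0.2343 and Cox11 by -0.1379, and without NFAT1 shRNA 2, Cox18 differed by -0.2393. Leaving out any array other than NFAT1 shRNA 1, 0 of the 89 genes passed with limma, against 0% to 0.363% of all genes. In these fits 3 to 7 had an unadjusted p under 0.05 (3.37% to 7.87%), against 9.33% to 15.2% of all genes. The remaining gene of the 14, Ndufa5 at -0.36, was named after its value was seen. By complex, 7 of the 14 belonged to complex I, 3 to complex IV, 2 to its assembly factors and 1 each to complexes III and V. In the full data NFAT1 shRNA 1 was the array of its group closest to the control mean for 56.2% of the 89 genes and 46.7% of all genes. Among the 14 genes that passed without it, this held for 13 (92.9%). None of the 14 passed with it, so that share follows largely from how they were picked. Leaving out control 3 as well, 1 of the 89 genes passed (1.12%), against 2.24% of all genes. It was Cox7c (-0.82, limma adjusted p = 0.0472).

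Other genes of mitochondrial respiration, from lists written from textbook knowledge, were not called either. None passed with limma over all genes, where 0.511% of all genes passed. At an unadjusted p under 0.05, 10.1% of all genes were higher and 7.01% lower. Of 33 further assembly factors of the complexes, 20 had a lower mean (median -0.08), and 1 was higher and 2 lower at an unadjusted p under 0.05. Ndufaf2 and Foxred1, both assembly factors of complex I, differed by -0.60 and -0.54, and Sdhaf4, of complex II, by 0.49. Of 17 citric acid cycle genes, 2 were higher and 2 lower at an unadjusted p under 0.05. Ogdh and Dld, parts of the oxoglutarate dehydrogenase complex, differed by -0.37 and -0.31, and Idh3b and Pdha1, of isocitrate and pyruvate dehydrogenase, by 0.33 and 0.24. Of 16 electron carriers and exchange proteins, 0 were higher and 3 lower at an unadjusted p under 0.05. Among them Cycs, which encodes cytochrome c, read 12.31, 11.60 and 11.55, against 12.52, 12.31 and 12.39 (difference -0.59, limma adjusted p = 0.251). Dhodh, which feeds electrons from pyrimidine synthesis to ubiquinone, differed by -0.76 (limma adjusted p = 0.270). Of 12 coenzyme Q synthesis genes 9 had a lower mean (median -0.11). ND5, the mitochondrially encoded subunit that could be named, differed by -0.08.

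Of 23 genes of mitochondrial protein import, which brings the nuclear subunits to the complexes, 22 had a lower mean, where 40.7% of all genes did, with a median of -0.22. Of these 2 had an unadjusted p under 0.05, Tomm34 (-0.27) and Timm44 (-0.18), where 7.01% of all genes were lower by this measure. The list's median was 0.03, -0.42 and -0.27 on NFAT1 shRNA 1, 2 and 3 and 0.11, -0.10 and 0.02 on controls 1, 2 and 3. NFAT1 shRNA 1 thus lay within the controls, and control 2 lay toward the other NFAT1 shRNA arrays. Of 19 mitochondrial gene expression and biogenesis genes, 0 were higher and 2 lower at unadjusted p under 0.05 (all genes: 10.1% and 7.01%). These were the transcription factor genes Nrf1 (-0.42, limma adjusted p = 0.275) and Yy1 (-0.30, limma adjusted p = 0.170), whose products are known to bind promoters of oxidative phosphorylation genes. Yy1 read 10.80, 10.67 and 10.75, against 11.06, 11.03 and 11.02, without overlap.

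RefSeq promoter windows of build GRCm38.p6, from 250 bases before to 50 after the transcript start, were found for 72 of the 89 genes. They were searched on both strands for GCGCA, any base and GCGC in a row (NRF1), CCGGAAG (the ETS family with GABPA), AAGATGGC (YY1) and TGGAAA (the NFAT core). The ETS and YY1 letters can share the bases AAG. The NRF1 letters stood in 15 of the 72 genes (20.8%), against 8.61% of 14452 measured genes with a window, the ETS letters in 21 (29.2%, against 15%) and the YY1 letters in 11 (15.3%, against 4.07%). The NFAT letters stood in 14 of the 72 (19.4%), against 21% of measured genes. For the NRF1, ETS and NFAT letters, the median differences of genes with and without the motif lay close together. The median difference was 0.01 with and -0.01 without the NRF1 letters, -0.01 with and -0.01 without the ETS letters, and -0.02 with and -0.01 without the NFAT letters. For YY1 it was -0.12 with, over 11 genes of which 8 were lower, and -0.01 without. These are descriptions without a test, and a match is not shown to be a site in use.

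The windows of 6 genes are shown as examples, chosen after their values were seen. Atp5d, Cox7c and Ndufa9 have the lowest p-values of the 89 genes, and Ndufs4 was higher with the same YY1 letters as Ndufa9. Ndufs8 and Ndufa6 are shown for windows that hold the ETS and NRF1 letters. Capitals mark motif matches. Ndufa9 (-0.39) and Ndufs4 (0.31) share the YY1 letters after the start. Cox7c holds the NFAT letters, well before the start. Ndufs8 holds the NFAT letters before the start and the ETS letters after it, and Ndufa6 holds the NRF1 letters after it. The ETS and NRF1 matches are the reverse complement of the letters searched. None of the 4 motifs stands in the window of Atp5d, which is the upstream one of 2 overlapping windows. Each is written 5′ to 3′ on the gene's strand.
Atp5d (chr10:80142025-80142324, plus strand): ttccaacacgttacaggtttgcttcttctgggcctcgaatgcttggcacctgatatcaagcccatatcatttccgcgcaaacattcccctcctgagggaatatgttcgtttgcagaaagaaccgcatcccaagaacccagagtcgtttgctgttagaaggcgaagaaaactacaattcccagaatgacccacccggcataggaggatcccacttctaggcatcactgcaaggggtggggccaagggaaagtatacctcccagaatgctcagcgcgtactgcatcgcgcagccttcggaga
Cox7c (chr13:86046746-86047045, minus strand): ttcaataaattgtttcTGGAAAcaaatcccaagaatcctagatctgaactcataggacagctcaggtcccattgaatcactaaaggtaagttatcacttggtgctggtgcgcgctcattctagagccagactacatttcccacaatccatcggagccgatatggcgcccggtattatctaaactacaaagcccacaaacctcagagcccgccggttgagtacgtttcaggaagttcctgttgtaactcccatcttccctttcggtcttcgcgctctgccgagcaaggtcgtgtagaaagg
Ndufa9 (chr6:126849095-126849394, minus strand): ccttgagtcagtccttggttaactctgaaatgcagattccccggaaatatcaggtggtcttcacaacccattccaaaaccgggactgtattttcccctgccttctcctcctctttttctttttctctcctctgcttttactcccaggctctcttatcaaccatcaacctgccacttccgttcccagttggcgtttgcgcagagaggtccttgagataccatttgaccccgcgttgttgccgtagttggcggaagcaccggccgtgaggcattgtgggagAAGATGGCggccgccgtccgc
Ndufs4 (chr13:114388045-114388344, minus strand): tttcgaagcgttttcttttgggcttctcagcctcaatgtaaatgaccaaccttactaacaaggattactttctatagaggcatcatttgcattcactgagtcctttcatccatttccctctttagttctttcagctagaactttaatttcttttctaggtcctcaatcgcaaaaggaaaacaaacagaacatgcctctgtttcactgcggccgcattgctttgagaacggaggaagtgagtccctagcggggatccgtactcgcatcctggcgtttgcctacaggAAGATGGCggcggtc
Ndufs8 (chr19:3912725-3913024, minus strand): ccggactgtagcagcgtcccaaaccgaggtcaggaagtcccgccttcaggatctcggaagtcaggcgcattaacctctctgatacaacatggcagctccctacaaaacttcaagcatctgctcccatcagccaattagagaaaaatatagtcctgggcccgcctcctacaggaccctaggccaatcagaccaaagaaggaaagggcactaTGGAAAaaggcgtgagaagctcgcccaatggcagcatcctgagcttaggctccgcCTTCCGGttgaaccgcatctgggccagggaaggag
Ndufa6 (chr15:82354242-82354541, minus strand): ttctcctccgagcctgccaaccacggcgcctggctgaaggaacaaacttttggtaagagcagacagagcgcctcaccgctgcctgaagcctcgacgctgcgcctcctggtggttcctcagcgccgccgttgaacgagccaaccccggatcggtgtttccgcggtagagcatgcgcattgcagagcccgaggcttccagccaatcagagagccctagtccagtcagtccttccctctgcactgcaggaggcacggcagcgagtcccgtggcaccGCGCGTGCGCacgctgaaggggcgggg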

How the data were processed

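Affymetrix mouse arrays measured RNA from 6 samples of 4T1 cells, 3 a group, with the groups taken from the labels. The values used are log2 signals as the authors deposited them. The submitters' processing notes name RMA, of a version not given in the sources used here. RMA corrects background, makes the signal distributions of the arrays alike and summarises probes. A shift of most transcripts in one direction would thus not be seen, and low signals are compressed. Signals ran from 1.80 to 14.22. Of 45037 probe sets, 34945 had 1 symbol, 932 several and 9160 are unnamed here.

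The fit was limma 3.58.1 (lmFit and eBayes, R 4.3.3) on 18193 genes with no filter and no covariates. On arrays simulated with these gene means and spreads, it recovered 22.4% of changes of 0.5, 71.6% of 1 and 90.9% of 2. A change of 0.5 could thus often be missed. Alternatives were a filter on dim genes, other scaling, another variance prior, weighting arrays, a block for the replicate number, leaving out arrays, and other choices of probe set. One of these, the name filter, left out probe sets ending in _s_at, _x_at or _a_at. It was meant to drop sets prone to cross-hybridisation, but the _a_at ending alone does not mark such a set. Intervals use limma's moderated variance. For arrays the number of samples limits the precision. Named genes were the 3 largest differences each way per complex, catalytic subunits, tissue forms, Nfatc2, and the 2 largest each way at an unadjusted p under 0.05 in each other list. Members, lists and tests were chosen with earlier results of these data known.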

Additional observations from a re-analysis of the deposited data

How the results depend on the processing

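Over 15 alternatives the 54 named oxidative phosphorylation genes gave 795 values, of which 716 kept their direction and their side of the threshold, 28 passed and 51 turned in sign, in 20 genes, each with a limma adjusted p of at least 0.403. Subtracting array medians shifts every gene by -0.0867, which by construction gave 10 of the 51, and the other 41 fell in 19 genes. The cause of the others was not tested. Changed genes over all genes numbered 93, against 61 with genes below the median signal left out (fewer genes were tested), 151 with array medians subtracted, 3380 with array weights, 792 with the replicate block and 407 without control 3 and NFAT1 shRNA 1 together, and 0 to 3349 without 1 array. With limma 0 passed without control 1, 2 or 3, where 1698, 2247 and 1761 had an unadjusted p under 0.05, and 2 without NFAT1 shRNA 2. Changed oxidative phosphorylation genes numbered 0, against 1 with array medians subtracted (Atp5d, adjusted p = 0.046), 12 of 89 with array weights (13.5%, against 18.6% of all genes), 2 with the replicate block (Atp5d, 0.0289, and Cox7c, 0.0287, or 2.25% against 4.35% of all genes), 1 without control 3 and NFAT1 shRNA 1, and 0 to 14 without 1 array. Those at an unadjusted p under 0.05 numbered 12 (13.5%, against 17.1% of all genes), 5 of 82 with the filter (6.1%, against 20.7%), 6 with array medians subtracted (6.74%, against 14.5%), 20 with array weights (22.5%, against 35.1%), and 3 to 25 without 1 array (3.37% to 28.1%, against 9.33% to 32.2%). Same-numbered arrays deviated together for numbers 1 and 2 (correlation 0.69 and 0.53) but not 3 (-0.04, where control 3 lay between the other controls for most genes), so the numbers were not taken as pairs, and whether the samples are paired is not known. Not every array correlated best with its own number, since NFAT1 shRNA 3 did so with control 2 (0.4647). The array weights ran from 0.25 for NFAT1 shRNA 1 to 10.37 for control 3. The weighted fit thus leaned most on control 3 and least on NFAT1 shRNA 1.

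The median difference of the 89 genes was -0.01, against -0.0938 with array medians subtracted (where that of all genes was -0.0435) and -0.0334 with array weights. It was -0.0284 when probe sets were averaged per gene and -0.0282 with the name filter. With array medians subtracted the medians were -0.0998 for complex I, -0.0752 for complex III, -0.0462 for complex IV and -0.1151 for complex V. Complex III was -0.0273 with array weights, -0.0165 with averaged probe sets and -0.0835 with the name filter, and -0.0159 to 0.0213 without 1 array. The assembly factors of complex IV were -0.1602 with the name filter, the value of Cox16 on a dimmer probe set.

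Signs turned with array medians subtracted for Uqcrfs1 (-0.0467), Atp5g2 (-0.0080), Ndufv1 (-0.0830), Ndufs3 (-0.0182), Ndufs7 (-0.0839), Cox4i1 (-0.0542), Atp5b (-0.0337), Cox4i2 (-0.0165), Cox8a (-0.0462) and Ndufa4 (-0.0334), and with quantile normalization repeated for Uqcrc1 (0.0176), Ndufv2 (0.0177) and Cox4i2 (-0.0199). They turned with averaged probe sets for Cox16 (-0.0749), Atp5c1 (-0.0515), Atp5g2 (-0.0869), Ndufv1 (-0.0086) and Cox8a (-0.0577). With the name filter they turned for Cox16 (-0.1602), Atp5c1 (-0.2171) and Cox5b (-0.1700). Each of these was then read on a much dimmer set, for Cox16 at 4.44, 4.17 and 4.14 on the NFAT1 shRNA arrays, against 9.01, 8.82 and 8.88 on its main set. With array weights Ndufv1 was -0.0085 and Ndufs7 -0.0334. Without control 3 and NFAT1 shRNA 1 Uqcrc1 was 0.0157, Ndufv1 -0.0031, Ndufv2 0.0023 and Ndufs7 -0.0150. Without 1 array the ranges that crossed 0 were -0.0145 to 0.1182 for Atp5b, -0.3646 to 0.0256 for Atp5g1, -0.0080 to 0.2197 for Cox20, -0.0071 to 0.0724 for Cox4i1, -0.0039 to 0.0685 for Cox8a, -0.0808 to 0.0653 for Cox8b, -0.0110 to 0.0860 for Ndufa4, -0.0351 to 0.0394 for Ndufs7, -0.0173 to 0.0218 for Ndufv1, -0.0949 to 0.0725 for Ndufv2, -0.1079 to 0.0873 for Sdhd, -0.2475 to 0.0178 for Uqcr11, -0.0536 to 0.0035 for Uqcrc1 and -0.0046 to 0.0831 for Uqcrfs1.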

Other observations

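Of the probe sets of these genes, 10 carry several gene symbols and stood for no gene in the counts. The pair shared by Ndufb4 and its relatives is given with that gene. The probe set shared by Ndufs6, an accessory subunit of complex I, and its copy Ndufs6b read 10.56, 10.24 and 10.44 on the NFAT1 shRNA arrays, against 10.65, 10.67 and 10.65 on the control arrays, and differed by -0.24 in the mean with no overlap. The brighter set of Ndufa11 and Ndufa11b, of the membrane arm of complex I, read 10.11, 9.82 and 9.90, against 9.93, 9.84 and 9.93. The set shared by Cox14, an assembly factor of complex IV, and another gene differed by 0.06 with overlapping groups. Several probe sets read 54 of the 89 genes, and for 33 of these they ran in the same direction.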
